A study of Mus musculus with 24 samples.

Results

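Solute carriers are membrane proteins that move nutrients, ions and metabolites across the plasma membrane and the membranes of organelles. T cells that leave rest to divide take up more glucose and amino acids, and several carriers of this class are induced on activation. Argonaute 2 (AGO2) holds a microRNA and is guided by the microRNA's seed, bases 2 to 8, to complementary stretches that lie mostly in 3' untranslated regions (3' UTRs). The solute carrier genes described here are all genes of the deposited AGO2 peak table whose symbol begins with Slc and a digit, without the amino acid transporter gene Slc38a2. They comprised 67 of the 4165 genes in the table and 202 of its 14634 peaks.

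AGO2 was crosslinked to RNA and immunoprecipitated (HITS-CLIP) from CD4+ T cells of C57BL/6 mice, 12 wild-type libraries and 12 libraries lacking miR-155, a microRNA induced by lymphocyte activation. The cells, taken from lymph nodes and spleen, had all been activated in culture for 4 days (CD3 and CD28 antibodies at 1 µg/mL, with IL-2 at 20 U/mL), and no resting cells serve as a reference. In each genotype 6 libraries carried each of the 3' linkers; among replicates 1 to 6 the knockout had linker 1 and the wild type linker 2, and among replicates 7 to 12 the reverse. The table gives 1 pooled value per genotype and peak, so every read number below is a scaled, pooled read number without replicate error, and a change in AGO2 contact cannot be told apart from a change in the amount of the messenger RNA. Where 2 read numbers are joined by "and" for a gene or peak, wild type stands first. Depth per library and the spread between libraries are unknown, and so is whether the deposited p-values take that spread into account. Coordinates are on GRCm38, not on the mm9 build the submitters name: they come from matching each deposited sequence, which extends 6 nt beyond its peak on each side, to GENCODE M21 transcripts. Of 11 T cell markers 8 had peaks, with 7366 scaled wild-type against 9319 knockout reads; Cd5, Cd6 and Lck had none listed. Of 5 B cell markers 1 had a peak (Cd22, 10.5 and 1.83 reads), and no peak was listed for the 6 myeloid or the 5 CD8 and NK cell markers.

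No solute carrier peak passed the test between genotypes. At a Benjamini-Hochberg adjusted p below 0.05 over all peaks of the authors' deposited p-values, 0 of the 202 peaks were called, where 0.601% of all peaks were (0.574% higher in wild type, 0.0273% higher in the knockout). At an adjusted p below 0.1 there were 2, against 0.745% of all peaks. At an unadjusted p below 0.05 there were 6 such peaks (4.20% of all peaks passed), 2 higher in wild type (2.72% of all peaks) and 4 higher in the knockout (1.48%). The 67 genes together held 3633 scaled wild-type against 3940 knockout reads. The median log2 ratio of wild type over knockout was 0.10 for solute carrier peaks (quartiles -0.89 and 1.11) and 0.20 for all peaks in the authors' deposited table (quartiles -0.61 and 1.33). The sign of the members' median depends on weakly read peaks. Over the 90 peaks with at least 20 scaled reads it was -0.16, and over the 6597 such peaks of the whole table -0.00056. The knockout was listed at 0 for 34 solute carrier peaks (16.8%; 16.6% of all peaks) and wild type for 17 (8.42%; 7.87% of all peaks), which are shares near the background. Summed per gene, 12 of the 67 genes were listed at 0 in the knockout (10% of all genes) and 2 in wild type (4.13% of all genes).

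**Figure D1:**
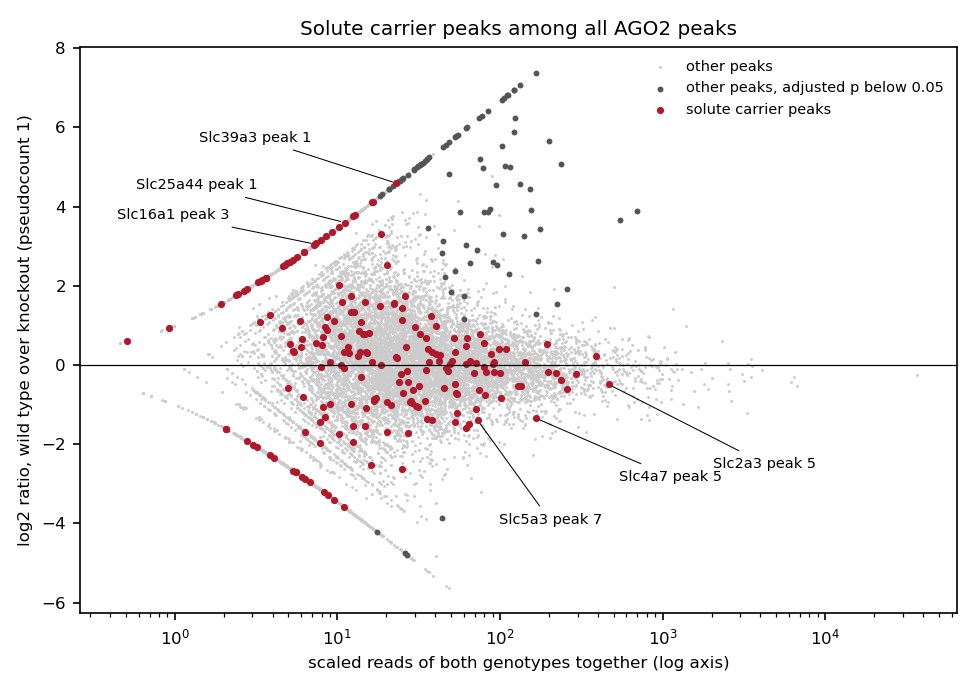
Log2 ratio of wild type over knockout (vertical axis) against the scaled reads of both genotypes together (horizontal log axis) for each AGO2 peak. Red points are the 202 solute carrier peaks, small grey points the other peaks and dark points the other peaks with an adjusted p below 0.05; the red points lie within the grey cloud, and those on the diagonal edges are listed at 0 in a genotype.

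AGO2 reads were concentrated on a few carriers. The 5 most read genes held 60.8% of the members' reads and the 13 genes with at least 100 scaled reads held 79.0%, while 16 genes had fewer than 10 reads. A single peak was listed for 31 genes, and 5 or more for 14. Genes are ordered here by their summed reads, which grow with the number and length of the peaks. Rankings by reads rest on these sums, and reads per 100 nt of peak are given for some genes only.

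**Figure D2:**
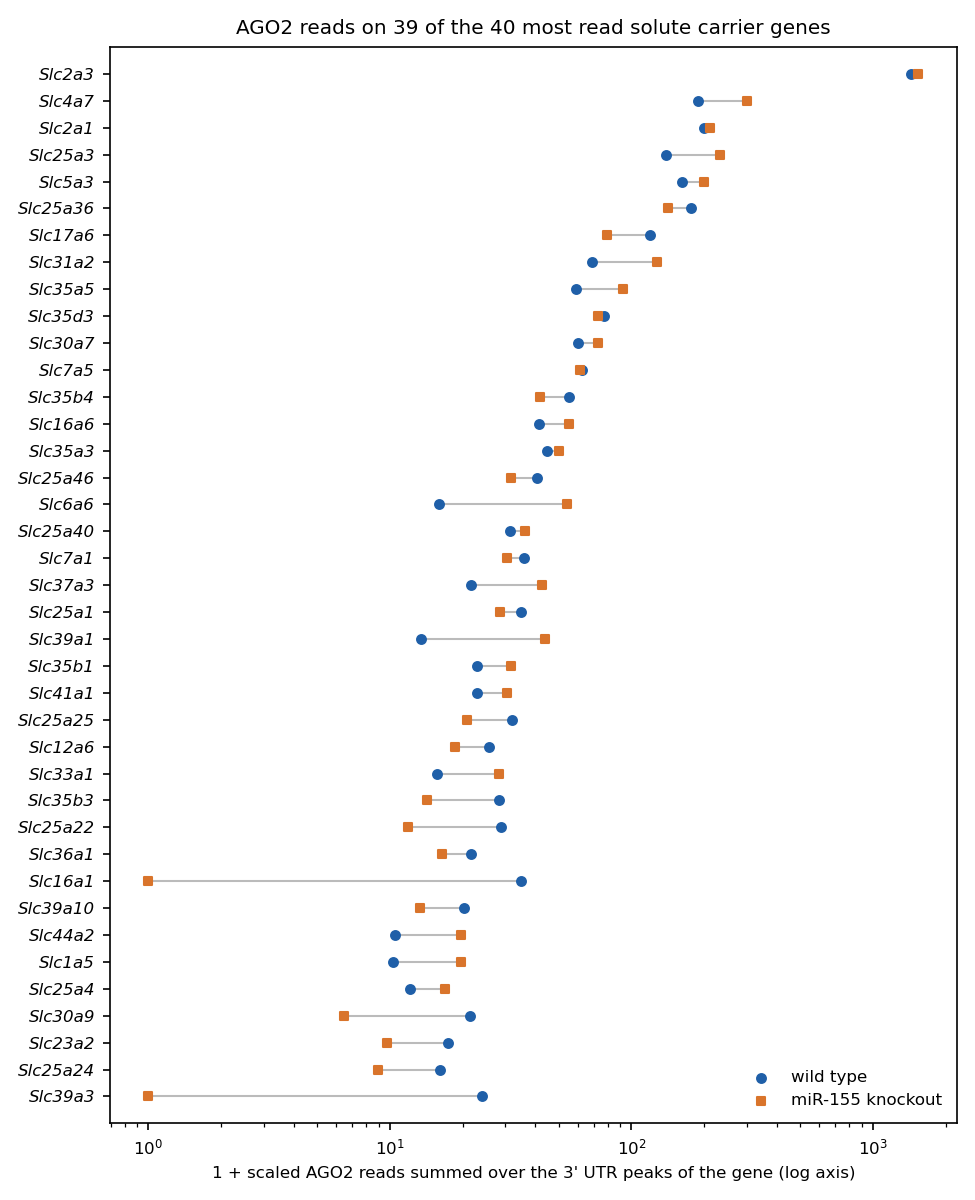
Scaled AGO2 reads (plus 1, log axis) summed over the 3' UTR peaks of each of 39 of the 40 most read solute carrier genes, in wild type (blue circles) and the miR-155 knockout (orange squares). Slc2a3 stands at the top with 1433 and 1545 reads; Slc16a1 and Slc39a3 are the 2 genes with the knockout listed at 0.

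The glucose transporters included the most read carrier gene. Slc2a3, which encodes the high-affinity glucose transporter GLUT3, held 1433 scaled wild-type against 1545 knockout reads over 27 peaks, 39.3% of all solute carrier reads. It ranked 21 of all genes by reads and shared rank 24 by number of peaks. Slc2a1, which encodes the glucose transporter GLUT1, held 200 wild-type against 210 knockout reads over 5 peaks, the most at peak 3 with 92.6 and 105. Per 100 nt of peak the values were closer, 269 scaled reads for Slc2a3 and 223 for Slc2a1, and a single peak of Slc35a3, the UDP-N-acetylglucosamine transporter of the Golgi, reached 231. In none of the 3 genes did the summed reads of the genotypes differ by as much as 1.2 times.

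The 27 peaks of Slc2a3 ran from position 76 to 2084 of the 3' UTR (transcript NM_011401.4, chromosome 6), and 81.4% of its reads fell in the 16 peaks that start within the first 1200 nt. Peak 5 held the most, 194 scaled wild-type against 272 knockout reads (416 to 447 nt into the 3' UTR). Peak 8 held 211 and 181, and peak 1 held 134 and 158. Peaks 15 and 16 followed with 103 and 135, and with 104 and 119 reads. None was called, and the smallest deposited p of the gene, at peak 5, was 0.0868 (Benjamini-Hochberg adjusted p = 1.00). The 13 peaks with more wild-type reads and the 14 with more knockout reads were interleaved along the 3' UTR. Among the 24 peaks with at least 20 reads the log2 ratio lay between -1.05 and 0.78 in the authors' deposited table.

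**Figure D3:**
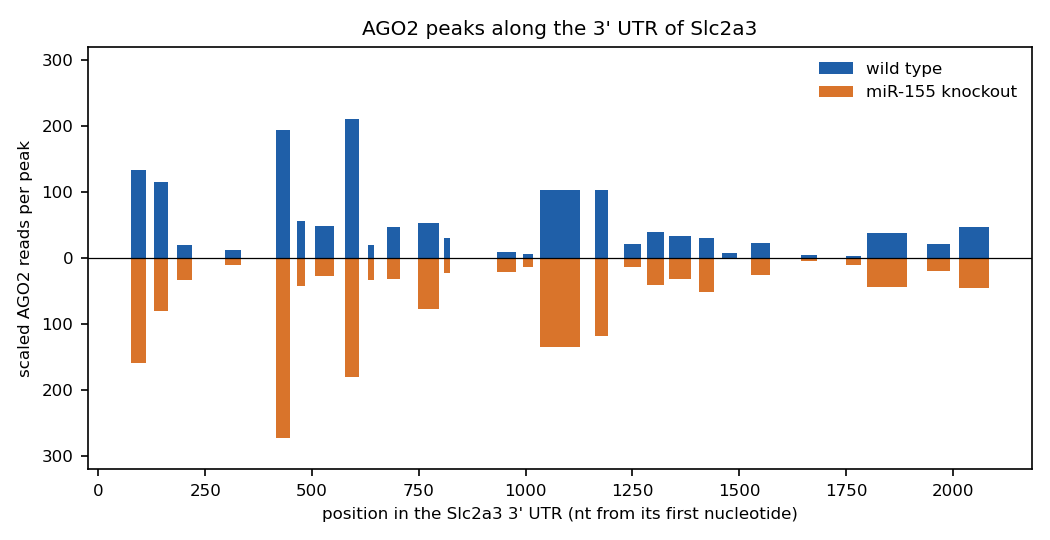
AGO2 peaks along the 3' UTR of Slc2a3. Each bar spans a peak (horizontal axis, position in the 3' UTR in nt); its height is the scaled reads in wild type (blue, upward) and in the miR-155 knockout (orange, downward), and the 2 profiles mirror each other with the tallest bars at peaks 5 and 8.

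Several of the most read Slc2a3 peaks held seed matches of microRNAs that T cells are known to express. A 7-nt or 8-nt match of at least 1 of the 18 families searched was present in 6 of its 27 peaks. That is a smaller share than the 37.0% of all peaks and the 44.6% of solute carrier peaks. These 6 sites are shown because 3 of them lie among the 4 most read peaks of the most read carrier gene. Capitals mark the match to the seed, with the A opposite the microRNA's first base where the match includes it.
Slc2a3 peak 1, miR-15/16 8mer: ctgcttctgagTGCTGCTAttctcacccca
Slc2a3 peak 8, miR-29 7mer-m8: gaaagaaagttTGGTGCTggagagaggtta
Slc2a3 peak 15, let-7 7mer-A1: ttggattttgtTACCTCAgctctgggagag
Slc2a3 peak 18, miR-181 7mer-m8: gagacagtgacTGAATGTgcagtgtggtcc
Slc2a3 peak 22, let-7 8mer: gttggaaggctCTACCTCActacagctagg
Slc2a3 peak 27, miR-101 7mer-A1: tctattaatgtTACTGTAgtttctgttttg
The mature microRNAs for the miR-15/16, miR-29 and let-7 sites, from RefSeq on GRCm38.p6, are printed with the seed in capitals. Those for miR-181 and miR-101 are not printed.
mmu-miR-16-5p: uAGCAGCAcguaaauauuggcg
mmu-miR-29a-3p: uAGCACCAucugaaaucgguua
mmu-let-7a-5p: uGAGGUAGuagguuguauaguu
The miR-15/16 peak held 134 scaled wild-type against 158 knockout reads, the miR-29 peak 211 and 181, and the let-7 8mer peak 22.6 and 25.3. Peak 22 also held a 7-nt miR-142-3p match that overlaps the let-7 match in its last bases. The most read peak, peak 5, held no 7-nt or 8-nt match of these families, and neither did any of the 5 peaks of Slc2a1.

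Other sugar and monocarboxylate carriers were less read. The 9 genes of this group held 1922 scaled wild-type against 2064 knockout reads, and without Slc2a3 489 and 519. Slc5a3, the sodium-coupled myo-inositol transporter, held 161 and 199 reads over 10 peaks that reach position 8188 of its 3' UTR. Its peak 7 (chromosome 16, 92086900 to 92086951, GRCm38) was the second closest of all members to the threshold, with 19.6 wild-type against 53.3 knockout reads (deposited p = 0.000686, Benjamini-Hochberg adjusted p = 0.0939). The neighbouring peaks 8 and 9 had 36.1 and 25.6, and 26.2 and 24.5 reads. The peak with the most reads, peak 4, had 54.8 and 79.5 and held a 7-nt match of the miR-17 family. Slc16a6, a monocarboxylate transporter family member, held 40.7 and 54.3 reads over 7 peaks, and its peak 3 had one of the lowest ratios, with 5.80 and 21.4 reads. The lactate exporter gene Slc16a3 held 8.56 and 6.69.

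Slc16a1, which encodes the lactate and pyruvate transporter MCT1, was 1 of the 12 solute carrier genes without knockout reads. All 3 of its peaks were listed at 0 there. They held 16.5, 10.2 and 7.30 scaled reads in wild type, 33.96 in all. The deposited p-values were 0.188, 0.114 and 0.357, so none approached the threshold (Benjamini-Hochberg adjusted p = 1.00 each). Of the 40 solute carrier genes with at least 20 scaled reads, Slc16a1 and Slc39a3 were the 2 without knockout reads (5.00%). Of all genes above the same minimum, 0.774% were listed at 0 there. Both genes lay close to that minimum, Slc39a3 with 23.1 reads in all. The 40 genes also had fewer reads than all such genes (median 63.3, against 90.8), and the difference in shares was not tested. Peak 3 of Slc16a1 (chromosome 3, 104656258 to 104656299, GRCm38) held a 7-nt match to the miR-155 seed, and peak 1 a 7-nt miR-29 match.

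A match of 7 or 8 nt to miR-155 was rare among solute carrier peaks, as it was among all peaks. It occurred in 2 of the 202 peaks (0.990%), against 265 of all peaks (1.81%), and a match of 6 nt in 1 further peak. The difference between these shares was not tested. The other 7-nt match lay in the only peak of Slc25a44, a mitochondrial carrier of branched-chain amino acids, with 11.1 scaled wild-type against 0 knockout reads (chromosome 3, 88410532 to 88410603, GRCm38; deposited p = 0.115, Benjamini-Hochberg adjusted p = 1.00). Peak 14 of Slc2a3, with the 6-nt match, held 6.64 wild-type against 13.6 knockout reads. The miR-155 sequence and the 3 sites follow, with the seed and its matches in capitals.
mmu-miR-155-5p: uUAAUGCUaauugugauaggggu
Slc16a1 peak 3, 7mer-m8: tatttttctAGCATTAtagttgcctggcat
Slc25a44 peak 1, 7mer-m8: cattcAGCATTAgctagaaatggactcgag
Slc2a3 peak 14, 6mer: agttgttgagagGCATTAgtttcttcaact
Both 7-nt site peaks were listed at 0 in the knockout, as were 16.6% of all peaks, and the 6-nt site peak had more reads there than in wild type. Over all 265 peaks with a 7-nt or 8-nt miR-155 match the median log2 ratio of wild type over knockout was 3.16, against 0.20 for all peaks. The 2 peaks with 7-nt sites held 18.4 scaled reads in all, and neither passed the test. The Slc25a44 match begins in the 6 nt that the deposited sequence adds before the peak, so it lies partly outside the peak itself.

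Carriers of inorganic ions included the peak nearest to a call. The 9 genes of this group held 325 scaled wild-type against 421 knockout reads. Slc4a7, a sodium bicarbonate cotransporter that imports base, held 187 and 300 over 12 peaks. By summed reads it was the second most read solute carrier gene, with 92.7 reads per 100 nt of peak. Its peak 5 (chromosome 14, 14798410 to 14798460, GRCm38) held 46.4 wild-type against 119 knockout reads, and the authors' deposited table gives a log2 ratio of -1.34 (p = 0.000443, Benjamini-Hochberg adjusted p = 0.0648). The adjusted p was 0.0439 when only peaks with at least 10 scaled reads entered the adjustment, and 0.105 when only peaks with reads in both genotypes did. The peak held a 7-nt let-7 match.
Slc4a7 peak 5, let-7 7mer-A1: atgtactgattTACCTCAaggtgcaaaata
The peaks of this gene leaned both ways. Peaks 1 and 3 had 9.56 and 26.2, and 13.8 and 39.2 reads, also more in the knockout, while peak 6 had 26.7 wild-type against 10.8 knockout reads and peak 7 had 31.03 and 30.5. Slc41a1, a magnesium transporter, held 21.9 and 29.5.

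Among carriers of transition metals and heme the 11 genes held 228 scaled wild-type against 282 knockout reads. Slc31a2, a copper transporter, held 67.9 and 127 over 4 peaks, with 22.1 and 48.7 at peak 2, an 8-nt miR-25/92 site, and 35.9 and 64.9 at peak 3. Slc39a1, a zinc importer, held 12.4 and 42.9, and its peak 2, with 2.76 and 22.1 reads, had the lowest log2 ratio of any solute carrier peak with at least 20 reads (-2.62 in the authors' deposited table; Benjamini-Hochberg adjusted p = 1.00). The 8-nt miR-142-3p match listed for that peak lies mostly in the 6 nt added before it, outside the peak itself. Slc39a3, a zinc importer of the same family, stood at the other end. Its only peak (chromosome 10, 81028646 to 81028693, GRCm38) held 23.1 wild-type against 0 knockout reads, the highest ratio among such peaks (deposited p = 0.00975, Benjamini-Hochberg adjusted p = 0.576), and contained a 7-nt miR-21 match but none to miR-155. The zinc transporters Slc30a7 and Slc30a9 held 59.2 and 71.4, and 20.5 and 5.46 reads.

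Mitochondrial carriers, the group with the most genes (14), held 530 scaled wild-type against 525 knockout reads. Slc25a3, which imports phosphate for ATP synthesis, held 138 and 231 over 7 peaks, of which peak 7 had 103 and 157 (deposited p = 0.127) and a 7-nt miR-142-3p match.
Slc25a3 peak 7, miR-142-3p 7mer-A1: cactctgactgCACTACAgtggttcatcta
The table assigned these peaks to the 3' UTR of transcript ENSMUST00000163246, but all 7 lay in exons that other annotated transcripts of the gene use as coding sequence. Of the remaining members 1 further peak, in Slc25a22, had this property. Slc25a36, a pyrimidine nucleotide carrier, held 176 wild-type against 141 knockout reads over 9 peaks, and Slc25a46, a protein of the outer mitochondrial membrane, 39.6 and 30.8 over 6. Of the 3 peaks of Slc25a40, peaks 1 and 2 leaned in opposite directions and both held a miR-17 family match. Its peak 1 held 10.1 and 28.2 reads (deposited p = 0.0182, Benjamini-Hochberg adjusted p = 0.784) and its peak 2 held 17.7 and 0.868. The glutamate carrier gene Slc25a22 held 18.8 and 6.32 at peak 2.

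Amino acid carriers held 274 scaled wild-type against 267 knockout reads over 10 genes. The most read of them by summed reads was Slc17a6, known as a vesicular glutamate transporter of neurons, with 119 and 78.2 over 8 peaks. Per 100 nt of peak it held 68.5 reads, fewer than Slc36a1 (103), Slc7a5 (91.6) and Slc6a6 (84.1). Peak 4 of Slc17a6 had 17.8 and 2.25 reads, and its peak 5 was listed at 0 in wild type with 11.0 in the knockout (deposited p = 0.0415). All 8 peak sequences matched this gene's 3' UTR on chromosome 7 and no transcript of another gene. Slc7a5, the light chain of the large neutral amino acid transporter that T cells induce on activation, held 61.5 and 60.3, most of them at peak 1 with 46.8 and 53.8. Slc6a6, the taurine transporter, held 14.9 and 53.2, and 47.2 of the knockout reads lay at peak 2. That peak had a ratio as low as those of Slc4a7 peak 5 and Slc5a3 peak 7, yet a deposited p of 0.458, so peaks with similar pooled ratios differed widely in p. Slc7a1, a transporter of arginine and lysine, held 34.8 and 29.4, with 17.1 and 5.15 at peak 3. The glutamine transporter genes Slc1a5 and Slc38a1 had 1 peak each, with 9.35 and 18.7, and with 4.91 and 0 reads.

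Carriers of the Golgi and endoplasmic reticulum held 301 scaled wild-type against 325 knockout reads over 8 genes. Slc35a5, a nucleotide sugar transporter family member, held 58.0 and 91.6, with 16.6 and 48.4 at peak 3. Slc35d3 held 76.1 and 71.9, nearly all in peak 1 (72.7 and 69.1), which contained matches of both miR-30 and miR-25/92. Slc35b4, a transporter of UDP-xylose and UDP-N-acetylglucosamine, held 54.2 and 40.9. The 6 genes for nucleosides, vitamins, organic ions and lipids held 53.6 and 55.5 reads. The choline transporter gene Slc44a2 led them with 9.51 and 18.7, followed by the vitamin C transporter gene Slc23a2 with 16.5 and 8.78 and the thiamine transporter gene Slc19a2 with 9.29 and 9.32. The biotin and pantothenate transporter gene Slc5a6, placed by its family number with the sugar carriers, had a peak of 12.8 and 0 reads (deposited p = 0.0147, Benjamini-Hochberg adjusted p = 0.713).

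**Figure D4:**
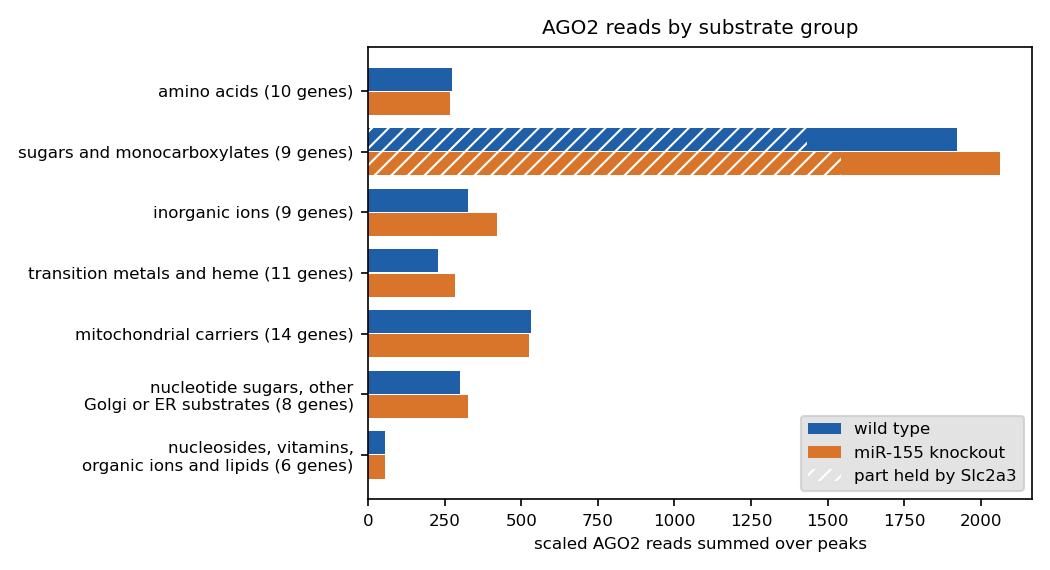
Scaled AGO2 reads summed over the peaks of each substrate group in wild type (blue) and the miR-155 knockout (orange), with the part held by Slc2a3 hatched. Sugars and monocarboxylates lead with 1922 and 2064 reads, and outside Slc2a3 the mitochondrial carriers hold the most, 530 and 525.

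Of the 13 genes with 2 or more peaks of at least 20 scaled reads, 9 had such peaks on both sides of equality (69.2%), near the 67.3% of all 1304 genes with as many. In the other 4, Slc25a3, Slc35a5, Slc31a2 and Slc39a1, all were higher in the knockout (16.6% of all such genes), and 0 had all of them higher in wild type (16.2% of all such genes); with 13 genes these shares were not tested. Summed per gene, of the 40 genes with at least 20 reads 20 had more wild-type reads and 20 more knockout reads, with a median log2 ratio of the sums of -0.02 against 0.07 for all 2841 such genes. The sums differed by at least 2-fold in 6 of the 40, against 17.2% of all such genes.

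At least 1 7-nt or 8-nt match of the 18 families was present in 90 of 202 peaks (44.6%) and in 37.0% of all peaks. Among peaks with at least 20 reads the shares were 54.4% and 44.9%. The matches were spread over 49 of the 67 genes. The miR-15/16 and the miR-17 families had the most, 12 peaks each (5.94% each, against 4.58% and 3.71% of all peaks), followed by miR-19 and miR-142-3p with 10 each (4.95%, against 3.05% and 2.94%). For miR-146 there were 4 peaks (1.98%, against 0.588%), in Slc5a3, Slc37a3, Slc4a7 and Slc10a3, the Slc4a7 match lying partly outside its peak. Mitochondrial carriers had a match in 25 of 40 peaks (62.5%) and the sugar and monocarboxylate group in 16 of 59 (27.1%). No test was made of these shares, and peaks of a gene share their source.

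**Figure D5:**
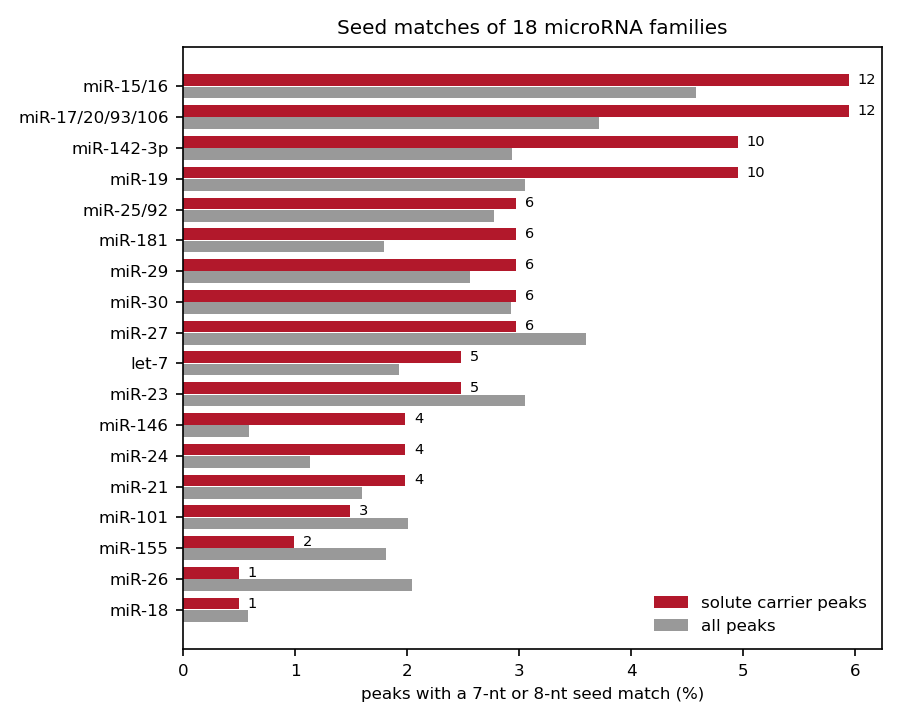
Share of peaks with a 7-nt or 8-nt seed match (horizontal axis, %) for each of 18 microRNA families, among the 202 solute carrier peaks (red, with the number of peaks) and among all 14634 peaks (grey). miR-15/16 and the miR-17 family lead with 12 solute carrier peaks each; miR-155 has 2.

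Among other transport and nutrient genes only Rheb had a called peak. The lists hold too few peaks to compare the shares called with the background. Of 56 peaks in 21 genes of ABC transporters, ion pumps, channels and related carriers, 0 were called (0.601% of all peaks) and 2 had an unadjusted p below 0.05 (4.20% of all peaks). The median of their log2 ratios in the authors' deposited table was -0.10, against 0.20 for all peaks. The calcium pump gene Atp2b1 was the most read of these, with 1001 scaled wild-type against 1098 knockout reads. In a list of nutrient uptake and sensing genes, 18 had peaks and 1 of their 94 peaks was called, where 0.601% of all peaks were. It lay in Rheb, the GTPase that activates mTORC1, with 128 and 12.6 reads and a miR-155 match (adjusted p = 4.57e-07). Txnip, an inhibitor of glucose uptake, held 751 and 1123 reads with no called peak, the mTORC2 subunit gene Rictor 711 and 881, and Bsg, the chaperone of monocarboxylate transporters, 206 and 176. The hexokinase gene Hk2 held 137 and 88.6.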

How the data were processed

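Bowtie 0.12.7 and mm9 are named in the submitters' processing notes; of the peak calling, the scaling and the test, the sources used here give no account. Each peak in the authors' deposited table has log2 values of pooled reads per genotype, their log2 ratio and a p-value. The read columns were taken as log2(1 + scaled reads), and 1 was taken off after reversing the log. Benjamini-Hochberg adjustment of the deposited p-values covered all 14634 peaks (threshold 0.05) and was tested on simulated data. No values per library were used, so neither linker nor replicate terms could be fitted. Seed matches were sought on the transcript strand of the deposited sequences: 8mer (seed match then A), 7mer-m8, 7mer-A1 and 6mer. Families used RefSeq mature sequences (GRCm38.p6); miR-150 was not searched. Of 202 peaks 200 matched GENCODE M21 transcripts (GRCm38) of the named gene. The members and lists were chosen with earlier results of these data known. Named genes are those with a called peak or with a miR-155 match and at least 20 reads, the 15 most read, the 3 most read per substrate group, the 5 highest and 5 lowest ratios of peaks with at least 20 reads, the 5 smallest p and genes with 8 or more peaks; others named were chosen after their values were seen, and 1 gene of the rule is not reported here. Python 3.11.15, NumPy 2.4.6, pandas 2.3.3 and statsmodels 0.14.6 were used.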

Additional observations from a re-analysis of the deposited data

How the results depend on the processing

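The count of 0 called solute carrier peaks held at an adjusted p threshold of 0.01 and among peaks with reads in both genotypes. It was 2 at a threshold of 0.1 (Slc4a7 peak 5 and Slc5a3 peak 7) and 1 (Slc4a7 peak 5) when only peaks with at least 10 scaled reads entered the adjustment, which tests fewer peaks. The members' median log2 ratio, 0.10, was 0.025 with at least 10 reads, 0.035 without a pseudocount over peaks with reads in both genotypes and 0.31 with the peaks of Slc38a2 added. It changed sign to -0.16 with at least 20 reads and to -0.10 when centred on all peaks. The log2 ratio of the summed reads, -0.12, was -0.030 without each gene's most read peak, -0.14 with at least 10 reads, -0.11 with equal totals and -0.12 without Slc2a3, an alternative chosen after seeing the data. With the flanks removed 1 of the 2 miR-155 matches was left. No gene in the table carried an accessory Slc symbol, so that alternative gave no value. No paired analysis was possible because the deposited columns pool the libraries of a genotype, and no replicate could be left out for the same reason. Depth per library is unknown, so weakly read peaks carry an error that cannot be stated.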

Other observations

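The median GC content of the solute carrier peaks was 38.7%, against 36.8% for all peaks, and 12.9% of them held the AU-rich pentamer ATTTA, against 11.6%. The median peak was 39.5 nt long (39 nt for all peaks) and began 972 nt into the 3' UTR (880 nt). Of their 103 family matches of 7 or 8 nt, 66.0% lay within 10 nt of the peak centre, against 65.0% of all matches. The sequence of the only peak of Slc38a6, among the least read members, also occurred in transcripts of other genes on both strands. Peak 1 of Slc16a6 lay antisense to a transcript of Amz2.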
